A study of Homo sapiens with 6 samples.

Results

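Sphingosine-1-phosphate (S1P) export and metabolism was followed through 10 of the 58735 genes in the count table, namely MFSD2B, SPNS2, SPHK1, SPHK2, SGPL1, SGPP1, S1PR2, CERS2, SPTLC1 and ASAH1. These genes were chosen on the fall of MFSD2B after propionate in these same libraries, together with the enzymes, exporter and receptor around it, so their differences between the groups are given as a description without a test. RNA sequencing had been carried out on Meg-01, a human megakaryoblast cell line derived from a chronic myeloid leukaemia in blast crisis, to ask how the short chain fatty acid propionate (C3) alters megakaryocyte gene expression. The 3 control libraries came from Meg-01 without treatment, for which the labels named no culture time. The 3 C3 libraries came from Meg-01 given 500 µM sodium propionate for 48 h according to the labels. The methods of the study name this time and a shorter one. No genetic modification was named for either group, and both shared the same serum-containing medium. All libraries derived from 1 cell line, and the libraries of a group were described as technical replicates, so the p-values given here measure only the spread between these samples.

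The control libraries held 19318595, 18050689 and 16159449 gene counts and the C3 libraries 16513025, 18652292 and 22821722. Of all genes, 15078 had at least 10 counts in at least 3 libraries and were tested. A gene was called when its adjusted p lay below 0.01 and its fold change above 1.3 in either direction. By these gates 983 genes (6.52% of those tested) were called, 761 (5.05%) higher and 222 (1.47%) lower after C3. An unadjusted p below 0.05 in edgeR was far more common, at 32.1% of the tested genes, 16.8% higher and 15.3% lower. Scaling by library size alone in place of TMM factors shifted this split, from 77.4% of called genes higher to 91.0%. Values below are normalized counts, that is counts scaled to the mean effective library size, given as mean ± SD over 3 libraries, and log2 fold changes are C3 against control with their standard error (SE).

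S1P is a bioactive lipid made inside cells when a sphingosine kinase phosphorylates sphingosine, which ceramidases release from ceramide. It leaves the cell through dedicated exporters, MFSD2B in erythrocytes and platelets and SPNS2 in endothelium, and acts on G protein-coupled S1P receptors, while a lyase and phosphatases degrade it within the cell. Platelets and red cells are main sources of S1P in blood, and S1P signalling has been linked to platelet release from megakaryocytes.

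MFSD2B, the S1P exporter of red cells and platelets (ENSG00000205639, chr2:24010081-24063321, plus strand, GRCh38), reached 175, 198 and 170 normalized counts in the control libraries and 91.1, 95.7 and 88.6 in the C3 libraries. Every C3 library lay below every control library, and the lowest control value stood well above the highest C3 value. The means were 181 ± 15.2 and 91.8 ± 3.60, a 1.97-fold lower level after C3 (log2 fold change -0.98, SE 0.139). In raw terms these values rest on 508 counts in the control group and 293 in the C3 group. As the RNA came from whole cultures, fewer cells that express the gene and less RNA per cell cannot be told apart. The neighbouring gene FKBP1B shares 10.3% of the exon bases of MFSD2B on the same strand, and reads there could not be assigned to MFSD2B alone. FKBP1B itself had 22 counts in the control group and 20 in the C3 group, too few for a test. Its part in the MFSD2B values was not tested.

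The promoters of MFSD2B and of both sphingosine kinases are shown because MFSD2B and SPHK1 had the lowest and the highest log2 fold change among the 10 genes, and SPHK2 is the paralogue of SPHK1. The windows are from RefSeq (build GRCh38.p14), run from 250 bases before to 50 bases after a transcription start, and read in the direction of transcription. They lie on the plus strand at chr2:24009835-24010134 for MFSD2B, chr17:76382954-76383253 for the first of 3 SPHK1 windows and chr19:48619256-48619555 for the first of 2 SPHK2 windows. Capitals mark GATAA, the core of the site read by GATA factors such as GATA1, which was searched on both strands.
MFSD2B: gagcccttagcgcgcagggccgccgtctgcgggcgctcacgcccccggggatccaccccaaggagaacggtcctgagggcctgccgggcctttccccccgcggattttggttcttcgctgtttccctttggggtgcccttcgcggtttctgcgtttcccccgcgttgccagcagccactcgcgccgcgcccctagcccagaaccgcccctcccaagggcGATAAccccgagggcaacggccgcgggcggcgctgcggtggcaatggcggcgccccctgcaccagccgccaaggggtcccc
SPHK1: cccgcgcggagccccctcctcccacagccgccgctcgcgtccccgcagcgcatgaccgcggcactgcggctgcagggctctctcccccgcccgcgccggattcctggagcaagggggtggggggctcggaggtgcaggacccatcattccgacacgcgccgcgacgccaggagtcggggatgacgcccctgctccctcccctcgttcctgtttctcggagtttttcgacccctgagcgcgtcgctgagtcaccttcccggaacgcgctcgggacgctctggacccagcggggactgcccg
SPHK2: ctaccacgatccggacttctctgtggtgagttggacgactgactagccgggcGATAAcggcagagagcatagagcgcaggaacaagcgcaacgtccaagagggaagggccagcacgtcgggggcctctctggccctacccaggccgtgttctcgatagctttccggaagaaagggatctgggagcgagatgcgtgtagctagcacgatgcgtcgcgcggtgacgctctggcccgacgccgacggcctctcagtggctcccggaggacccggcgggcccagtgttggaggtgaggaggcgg
The MFSD2B window has 1 GATAA match, which begins at position -31 relative to the start, and the SPHK2 window has 1 at position -198. None of the 3 SPHK1 windows holds these letters. RefSeq windows were examined for 6 of the 10 genes (9 windows). Those of SGPL1 and S1PR2 and the second SPHK2 window hold no GATAA, whereas the SPTLC1 window has 1 at position -32. Over all 35116 promoter windows of this length 22.7% hold the motif on either strand, and a match is a description of the letters only. The MFSD2B window has 72.7% G and C bases with 34 CpG dinucleotides, and the SPHK1 window shown has 72.7% with 38, against a median of 58.7% over all windows. The TATA box letters TATAAA were found in none of the 9 windows and in 11.5% of all windows. Windows of SPNS2, SGPP1, CERS2 and ASAH1 are not shown.

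SPNS2, the S1P exporter best known from endothelial cells (ENSG00000183018, chr17:4498881-4539035, plus strand), had 5391, 5398 and 4887 normalized counts in control and 5863, 5480 and 5632 after C3. All C3 libraries lay above the control libraries, but the gap between the nearest libraries of both groups was smaller than the SD of control. The means of 5225 ± 293 and 5658 ± 193 gave a log2 fold change of 0.11 (SE 0.0631), and 0.19 when scaled by library size alone. Without control replicate 3 it was 0.069. Per kilobase of exon, SPNS2 was 34.2, 30.3 and 32.0 times the level of MFSD2B in the control libraries, and 71.6, 63.7 and 70.7 times in the C3 libraries. MFSD2B thus made up 3.02% ± 0.178 of the summed level of both exporters in control and 1.44% ± 0.0928 after C3, while the median sum per kilobase was 1360 and 1400. The plot of the 10 genes by library shows this contrast between the exporters.

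**Figure D1:**
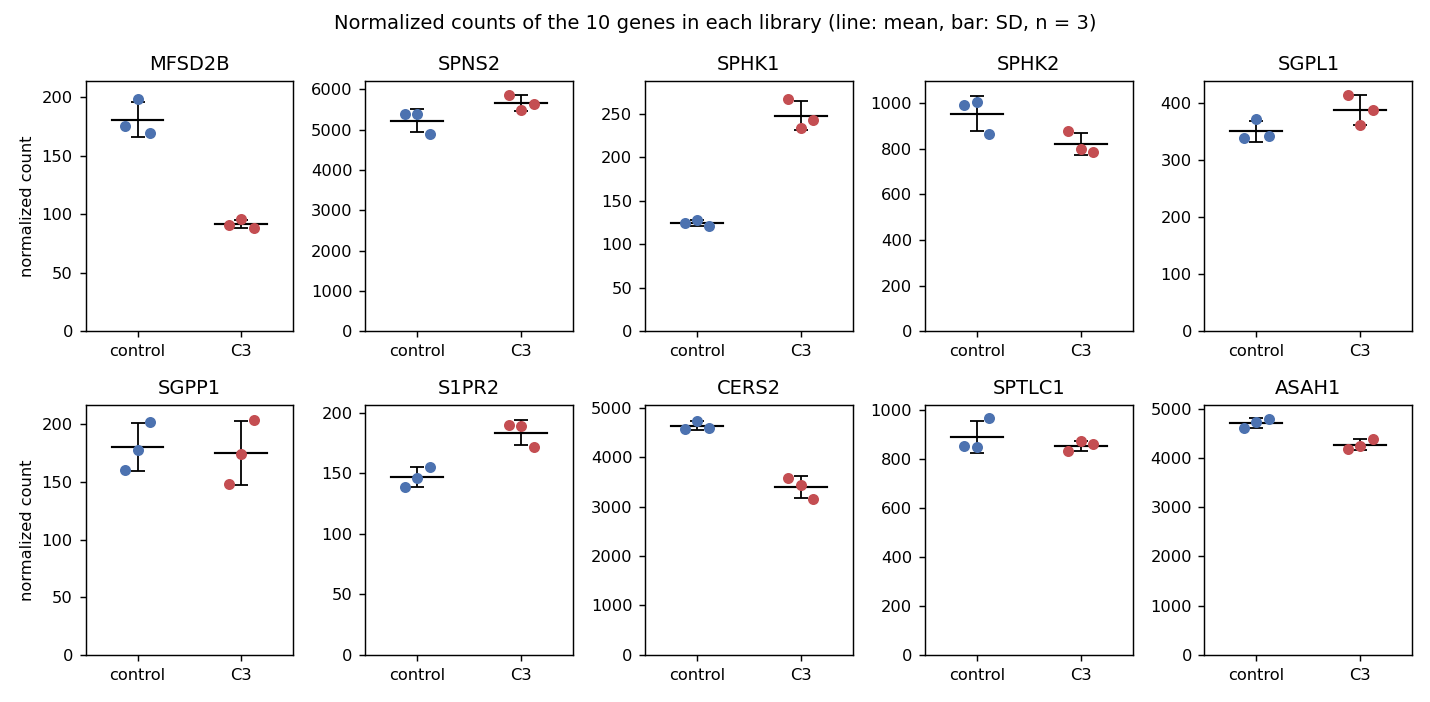
Normalized counts of the 10 genes in each library, with 1 panel a gene, points for libraries, lines for group means and bars for SD (n = 3). MFSD2B lies at 88.6 to 95.7 in C3 against 170 to 198 in control, and SPHK1 at 234 to 266 against 121 to 127.

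Among the kinases, SPHK1, which phosphorylates sphingosine mainly in the cytosol and at the plasma membrane (ENSG00000176170, chr17:76376584-76387860, plus strand), had 124, 127 and 121 normalized counts in control and 266, 234 and 243 after C3. The groups were far apart relative to their spread, and the lowest C3 library was well above the highest control library. The mean was 124 ± 3.34 in control and 248 ± 16.9 after C3, 1.99-fold higher (log2 fold change 0.99, SE 0.121). SPHK2, the kinase found also in nucleus and mitochondria (ENSG00000063176, chr19:48619291-48630717, plus strand), had 990, 1004 and 863 normalized counts in control and 878, 796 and 787 after C3. Here the lowest control library fell within the C3 range, so the groups overlapped, with means of 953 ± 77.7 and 820 ± 49.95 (log2 fold change -0.22, SE 0.0751). Of the SPHK2 exon bases 22.3% overlap DBP and a long non-coding RNA on the opposite strand, and DBP itself had a log2 fold change of 0.0043.

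Both kinases together kept a similar median level per kilobase, 193 in control and 186 after C3, but their proportion differed. SPHK1 accounted for 14.6%, 14.7% and 16% of the kinase sum in the control libraries and for 29.2%, 28.5% and 29.6% in the C3 libraries. The level of SPHK2 was 5.64 ± 0.327 times that of SPHK1 in control and 2.44 ± 0.0652 times after C3. SPHK2 remained the more abundant kinase transcript in all 6 libraries.

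**Figure D2:**
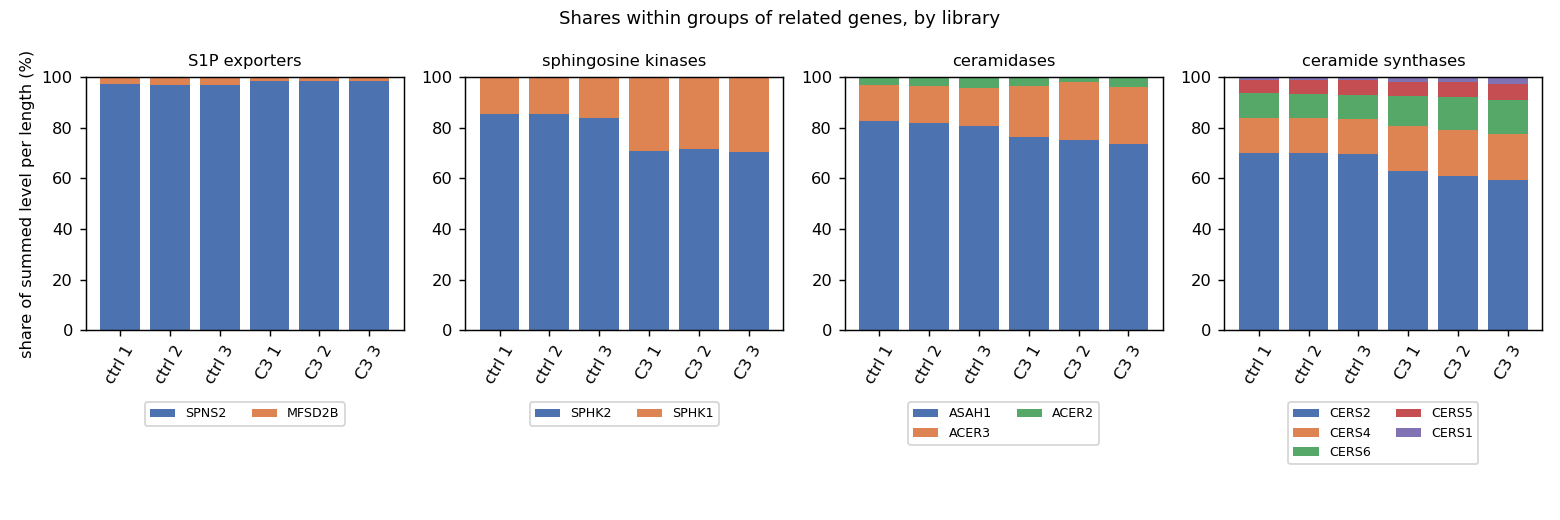
Share of each gene in the summed level per kilobase of its group of genes (percent) in each library, by role. The SPHK1 share lies at 14.6% to 16% in control and 28.5% to 29.6% in C3, and the CERS2 share at 69.7% to 70.1% and 59.3% to 63.1%.

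Sphingosine and ceramide are supplied by several enzymes. SPTLC1, a subunit of the serine palmitoyltransferase that opens de novo synthesis (ENSG00000090054, chr9:92000087-92115413, minus strand), had 891 ± 66.1 normalized counts in control and 856 ± 20.5 after C3, with overlapping groups (log2 fold change -0.055, SE 0.0720). CERS2, the ceramide synthase for very long acyl chains (ENSG00000143418, chr1:150960583-150975003, minus strand), had 4580, 4742 and 4597 in control and 3582, 3442 and 3150 after C3. Each C3 library was below each control library, and the gap exceeded the SD of either group. The means were 4640 ± 89.2 and 3391 ± 220, 1.37-fold lower after C3 (log2 fold change -0.45, SE 0.0633). A large part of the CERS2 exon bases, 37.2%, overlaps SETDB1 and a long non-coding RNA on the opposite strand, and SETDB1 had a log2 fold change of -0.047.

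CERS2 provided 69.9% ± 0.223 of the summed level of ceramide synthases per kilobase in control and 61.2% ± 1.91 after C3, while the median of this sum itself went from 1420 to 1210. In the same sum CERS4 went from 13.8% ± 0.0439 to 18.0% ± 0.515, and CERS6 from 9.64% ± 0.399 to 12.7% ± 0.776, although 43.8% of the CERS6 exon bases overlap its antisense RNA. Their own log2 fold changes were small, 0.12 (SE 0.0689) for CERS4 and 0.14 (SE 0.0678) for CERS6, and neither was called. The groups did not overlap for either gene, with the C3 libraries higher, as non-overlap held for 34.4% of all tested genes. The larger shares of both genes thus go with the lower level of CERS2 and with their own higher values. The size of each part was not tested. The CERS1 share went from 1.23% ± 0.026 to 2.16% ± 0.583, and CERS1 itself was higher in groups that did not overlap (log2 fold change 0.56, SE 0.184). CERS1 was not called (adjusted p = 0.031, edgeR with Benjamini-Hochberg adjustment), but was called higher without C3 replicate 1. GDF1 on the same strand overlaps 68.5% of the CERS1 exon bases. None of the 4 tested synthases outside the 10 genes was called by edgeR, DESeq2 or limma-voom, and 2 of them had an unadjusted p below 0.05, both higher, beside 6.52% called and 16.8% higher at that p among all tested genes. ASAH1, the lysosomal acid ceramidase (ENSG00000104763, chr8:18055992-18084998, minus strand), had 4612, 4724 and 4804 normalized counts in control and 4183, 4249 and 4392 after C3. These groups did not overlap, yet the difference was small, with means of 4713 ± 96.2 and 4275 ± 107 (log2 fold change -0.14, SE 0.0601). It was -0.066 with library size alone. Among ceramidases, ACER3, an alkaline ceramidase of the Golgi and endoplasmic reticulum, had 1201, 1275 and 1333 normalized counts in control and 1655, 1937 and 2027 after C3. All 3 C3 libraries were above the control libraries, and ACER3 rose from 1269 ± 65.9 to 1873 ± 194 (log2 fold change 0.56, SE 0.0729, adjusted p = 3.96e-06, edgeR's quasi-likelihood F-test, Benjamini-Hochberg adjusted). ASAH1 therefore held 81.8% ± 0.963 of the ceramidase sum per kilobase in control and 75.0% ± 1.51 after C3, and ACER3 14.6% ± 0.292 and 21.8% ± 1.47.

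For breakdown, SGPL1, the lyase that cleaves S1P irreversibly (ENSG00000166224, chr10:70815905-70895816, plus strand), had 338, 371 and 341 normalized counts in control and 413, 362 and 388 after C3. The second C3 library lay below the highest control library, so the groups overlapped (350 ± 18.2 and 388 ± 25.7, log2 fold change 0.14, SE 0.0919). SGPP1, an S1P phosphatase that returns sphingosine (ENSG00000126821, chr14:63684216-63728065, minus strand), ranged from 161 to 202 in control and from 148 to 204 after C3. Its spread within each group was larger than the distance between the means of 180 ± 20.6 and 175 ± 28.0 (log2 fold change -0.021, SE 0.134). Per kilobase, SGPL1 was 1.08 ± 0.0384 times SPHK1 in control and 0.599 ± 0.0103 times after C3, so the order of these 2 transcripts was inverted between the groups, while SPHK2 lay above SGPL1 in both (medians 165 and 29.6 in control, 133 and 33.6 after C3). Of the other phosphatases and the aldehyde dehydrogenase after the lyase, 3 were tested, and edgeR, DESeq2 and limma-voom called 0, with 0 also at an unadjusted p below 0.05, beside 6.52% and 32.1% of all tested genes.

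The S1P receptors differed among themselves. S1PR2, a receptor that couples to several G proteins (ENSG00000267534, chr19:10221433-10231331, minus strand), had 139, 146 and 155 normalized counts in control and 190, 189 and 172 after C3. The C3 libraries all exceeded the control libraries, with means of 147 ± 8.07 and 184 ± 10.4 (log2 fold change 0.32, SE 0.125). S1PR1, the Gi-coupled receptor that guides cell egress, had only 4, 10 and 3 counts in the control libraries and 22, 28 and 27 in the C3 libraries. S1PR5, known from natural killer cells and oligodendrocytes, had 2, 4 and 0 counts and 14, 18 and 11. Both receptors sat near the detection limit in control and were higher in every C3 library. S1PR1 had 6.03 ± 3.96 normalized counts in control and 24.3 ± 2.88 after C3 (log2 fold change 1.97, SE 0.433), and S1PR5 had 2.07 ± 2.12 and 13.9 ± 4.64 (log2 fold change 2.6, SE 0.637). Both were called, but both reached the count minimum only through the C3 libraries, where they were high, so the calls are not given as support for the difference.

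Counts this low limit both calls. Neither was called without control replicate 1 (log2 fold changes 1.73 for S1PR1 and 2.55 for S1PR5) or without control replicate 3 (1.74 and 2.11). Without control replicate 2, the control library with the highest counts, the log2 fold changes were 2.65 and 3.52. S1PR5 was not tested when any C3 library was left out, as it then missed the count minimum. S1PR3 was tested as well and was not called (13.4 ± 3.32 and 16.9 ± 5.53 normalized counts, log2 fold change 0.29, adjusted p = 0.663 by edgeR with Benjamini-Hochberg adjustment), and S1PR4 had too few counts for a test. S1PR2 remained the leading receptor, with 92.6% ± 4.92 of the receptor sum per kilobase in control and 81.7% ± 2.81 after C3. The median of this sum was 44 in control and 64.3 after C3. Endothelial cells carry S1PR1, and their markers were not uniform. The sum of 4 endothelial genes was 102, 75.3 and 84.8 normalized counts in control and 143, 143 and 160 after C3, with PLVAP as its most abundant gene (55.7%), 1 of 3 tested genes called higher (beside 5.05% of all tested genes), and none at 0 in all libraries. CDH5 was higher (log2 fold change 1.01, SE 0.330) and ROBO4 lower (-0.64, SE 0.307), neither called, and CLDN5 had 8 counts in control and 3 after C3. Their part in the receptor result was not tested.

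**Figure D3:**
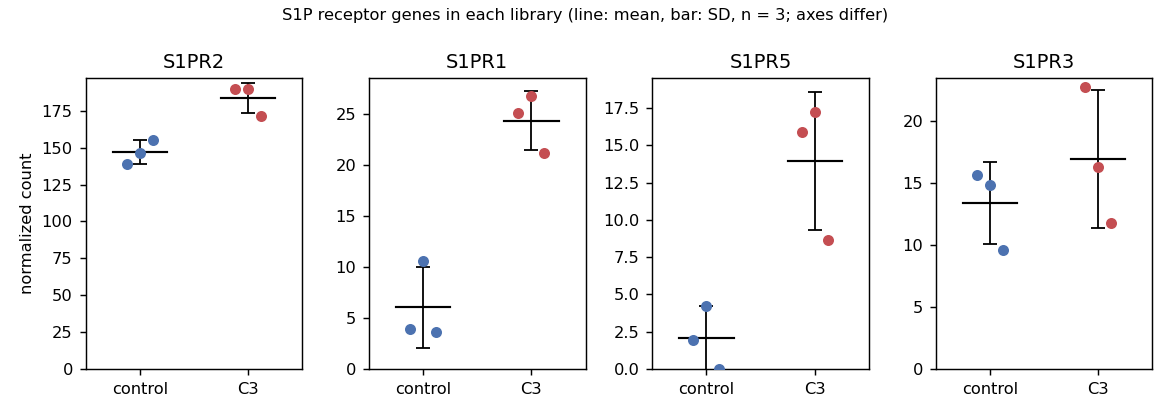
Normalized counts of S1PR2, S1PR1, S1PR5 and S1PR3 in each library, with points for libraries, lines for means and bars for SD (n = 3), on axes that differ between panels. S1PR1 lies at 3.58 to 10.6 in control and 21.2 to 26.8 in C3, while S1PR3 overlaps between the groups.

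All 10 genes had at least 10 counts in every library, so each passed the count minimum in both groups. By the gates used over all genes SPHK1 was higher (1 of 10) and MFSD2B and CERS2 were lower (2 of 10), beside 5.05% and 1.47% of all tested genes, and nothing is read from this as the contrast chose the genes. The groups did not overlap for 6 of the 10, 3 higher (SPHK1, SPNS2, S1PR2) and 3 lower (MFSD2B, CERS2, ASAH1), beside 34.4% of all tested genes, and again nothing is read from it. Of the log2 fold changes 4 were positive and 6 negative, with a median of -0.038 against 0.0021 over all tested genes. The values of SPTLC1 and SGPP1 changed sign when single libraries were left out, between -0.087 and 0.0065 for SPTLC1 and between -0.15 and 0.083 for SGPP1. Smaller overlaps with other annotated genes, from 1.34% to 7.06% of exon bases, apply to SPHK1, S1PR2, SPNS2, ASAH1 and SGPL1. DNMT1, which overlaps S1PR2 on the same strand, had 10731 ± 630 normalized counts in control and 12364 ± 177 after C3 (log2 fold change 0.20). On the opposite strand, PRPSAP1 beside SPHK1 had a log2 fold change of -0.21 and MYBBP1A beside SPNS2 0.054. The part of these neighbours in the values was not tested. The plot of log2 fold changes by role sets the 10 genes beside the other genes of sphingolipid metabolism.

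**Figure D4:**
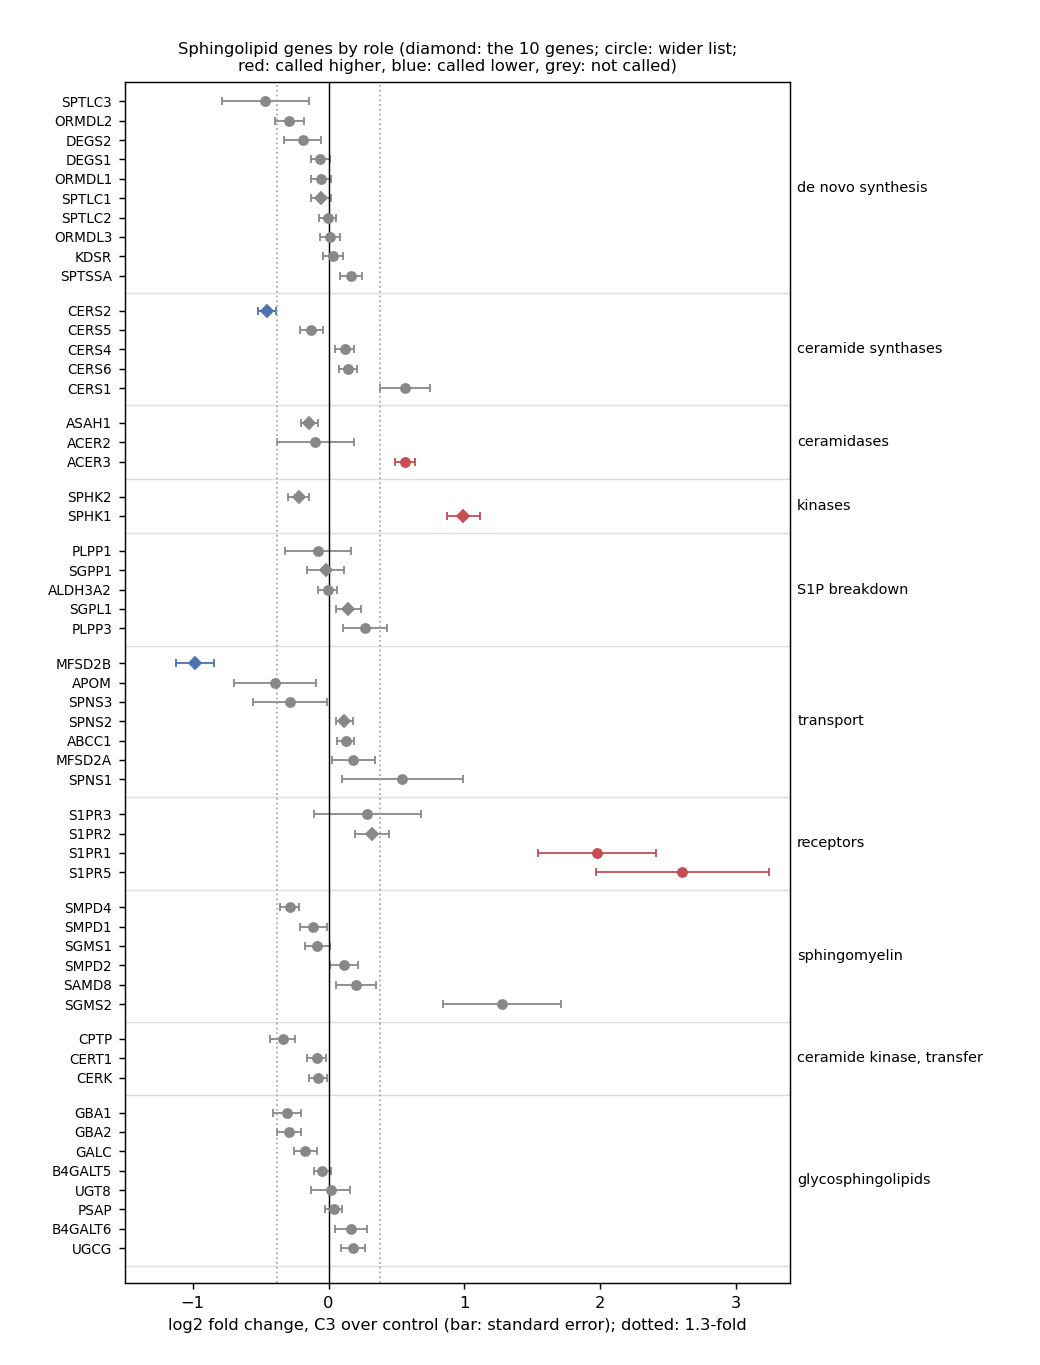
Log2 fold change of C3 against control with its SE for the 10 genes and the tested genes of the wider sphingolipid list, arranged by role. SPHK1 (0.99) and MFSD2B (-0.98) mark the ends among the 10 genes, and S1PR1 (1.97) and S1PR5 (2.6) lie above them.

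Of 52 further sphingolipid genes 43 were tested, and 3 were called higher (ACER3, S1PR1 and S1PR5) by edgeR, beside 5.05% of all tested genes. Of these, S1PR1 and S1PR5 passed the count minimum only through the C3 libraries, and ACER3 alone was called with DESeq2, with a mean count of at least 50, and without control replicate 1 or 3. None was called lower, beside 1.47% of all tested genes, by edgeR, DESeq2 or limma-voom, and 8 had an unadjusted p below 0.05 in the higher and 5 in the lower direction, beside 16.8% and 15.3% of all tested genes. Of the 43 genes 21 had positive and 22 negative log2 fold changes, with a median of -0.0047, close to that of all genes. The lower genes with the smallest p-values were SMPD4, a neutral sphingomyelinase, CPTP, a ceramide-1-phosphate transfer protein, and GBA2, a non-lysosomal glucosylceramidase. SMPD4 had 3030 ± 160 normalized counts in control and 2490 ± 236 after C3 (log2 fold change -0.29, SE 0.0691, adjusted p = 0.00426, edgeR with Benjamini-Hochberg adjustment), a difference below the fold gate. Over all alternatives its adjusted p (edgeR, DESeq2 or limma-voom, Benjamini-Hochberg) ran from 0.000143 to 0.0636, the highest without C3 replicate 3. CPTP with 578 ± 51.6 and 460 ± 46.2 was below the fold gate too (log2 fold change -0.34, SE 0.0896, adjusted p = 0.00841, edgeR with Benjamini-Hochberg adjustment). With single libraries left out its log2 fold change ran from -0.25 (without C3 replicate 3, adjusted p = 0.110 by edgeR with Benjamini-Hochberg adjustment) to -0.41 (without control replicate 3, adjusted p = 0.00436). It was past both gates without control replicate 3 and without C3 replicate 1 (-0.39), and over all alternatives its adjusted p (edgeR, DESeq2 or limma-voom, Benjamini-Hochberg) ran from 0.00127 to 0.110. GBA2 with 467 ± 21.5 and 382 ± 18.7 missed both gates (log2 fold change -0.29, SE 0.0860, adjusted p = 0.0176, edgeR with Benjamini-Hochberg adjustment), with an adjusted p of 0.00908 to 0.0853 over the alternatives.

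By role, edgeR, DESeq2 and limma-voom called 0 of the 9 tested genes of de novo synthesis, 0 of 6 of the sphingomyelin cycle, 0 of 3 of ceramide kinase and ceramide transfer, 0 of 8 of the glycosphingolipid branch and 0 of 5 related transporters. At an unadjusted p below 0.05 these roles had 2, 2, 1, 3 and 0 genes, respectively, beside 6.52% called and 32.1% past that p among all tested genes. The transporters included MFSD2A, the lysophosphatidylcholine carrier related to MFSD2B (log2 fold change 0.18, SE 0.159), SPNS3, which lies beside SPNS2 on chromosome 17 (-0.28, SE 0.269), and ABCC1, a pump reported to move S1P (0.12, SE 0.0638). None of these differences exceeded 2 times its SE.

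Levels of different genes were compared per kilobase of merged exons. In control the order of the medians was SPNS2 (1325), CERS2 (990), ASAH1 (307), SPHK2 (165), SPTLC1 (80.8), SGPP1 (53.4), S1PR2 (40.2), MFSD2B (38.8), SGPL1 (29.6) and SPHK1 (28.2). Among neighbours in this order S1PR2 and MFSD2B alone had overlapping control libraries. SPNS2 stood at the 96.2 percentile of the tested genes and MFSD2B at the 39.4 percentile, so SPNS2 was by far the more abundant exporter transcript in this megakaryoblast line. After C3, MFSD2B moved from rank 8 to rank 10 with a median of 20.1, and SPHK1 from rank 10 to rank 6 with 55.1. In the C3 libraries SGPP1 (44.4 to 61.1) overlapped both SPHK1 (52.9 to 60.3) and S1PR2 (47.1 to 52.2), so these ranks hold for the medians only. SPNS2, CERS2, ASAH1, SPHK2, SPTLC1 and SGPL1 held their ranks. With the longest transcript as length the order changed, with CERS2 first, MFSD2B at rank 6 and S1PR2 at rank 10 in control.

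**Figure D5:**
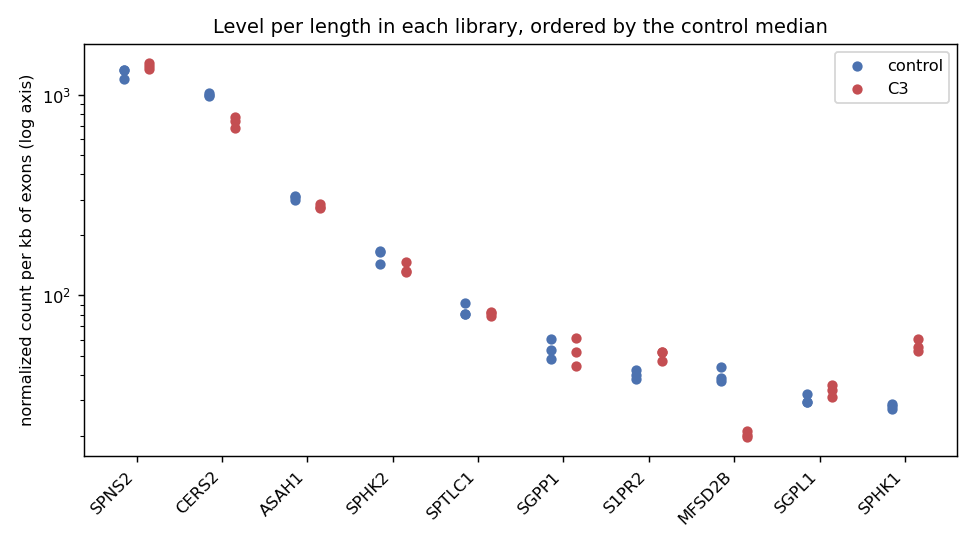
Normalized counts per kilobase of merged exons of the 10 genes on a log axis, with points for the 6 libraries by group. SPNS2 leads in both groups (medians 1325 and 1384), and MFSD2B has the lowest C3 median, 20.1.

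The genes whose log2 normalized counts followed MFSD2B most closely over the 6 libraries, among 11850 genes with a mean of at least 50, were EIF4EBP2 (Pearson's r 0.9967), ATXN7L3B (0.9955), TPRN (0.9948), VPS35L (0.9938) and MR1 (0.9932). These libraries share the difference between the groups, which enters each coefficient. Their log2 fold changes were smaller than that of MFSD2B, -0.24 for EIF4EBP2, -0.26 for ATXN7L3B, -0.31 for TPRN and VPS35L and -0.40 for MR1.

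The megakaryocyte label was compared with marker genes. The sum of 12 megakaryocyte genes was 22753, 22809 and 21797 normalized counts in control and 22585, 20466 and 21286 after C3, of which ITGA2B, the integrin subunit CD41, made up 57.6%. GATA1 (1818 ± 54.8 and 1849 ± 106) and FLI1 (4751 ± 183 and 4993 ± 153), the transcription factors of the lineage, were present in all libraries and not called (log2 fold changes 0.023 and 0.071). PF4 and GP1BB were at 0 in all libraries, but 52.1% and 100% of their exon bases overlap other annotated genes on the same strand. Of 10 tested megakaryocyte genes 4 had positive and 6 negative log2 fold changes, and 2 were called lower, beside 1.47% of all tested genes. GP1BA (log2 fold change -0.49, adjusted p = 2.17e-06) and TUBB1 (-1.36, adjusted p = 0.00253) fell (edgeR's quasi-likelihood F-test, Benjamini-Hochberg adjusted). TUBB1 had 43, 39 and 32 counts in control and 8, 20 and 23 after C3. It thus reached the count minimum only with the control libraries, where it was high, and its call is not given as support for the difference. ITGB3, the integrin subunit CD61, lay in the other direction from GP1BA and TUBB1, with 184 ± 7.42 and 233 ± 14.7 normalized counts in groups that did not overlap. It was not called (log2 fold change 0.34, adjusted p = 0.0325, edgeR with Benjamini-Hochberg adjustment). Of the ITGB3 exon bases 33.2% overlap another annotated gene on the same strand, and of the TUBB1 exon bases 35.5% overlap ATP5F1E on the opposite strand. As MFSD2B is a platelet and red cell exporter, these values stand beside its lower level, and their part in it was not tested.

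The sum of 13 erythroid genes was 1694, 1532 and 1607 normalized counts in control and 1812, 1740 and 1790 after C3, led by KLF1 with 42.3% and with none at 0 in all libraries. Of 9 tested, edgeR, DESeq2 and limma-voom called 0, while an unadjusted p below 0.05 was reached by 2 in the higher and 2 in the lower direction, beside 6.52% and 32.1% of all tested genes. EPOR was higher and missed only the fold gate (log2 fold change 0.35, SE 0.0850, adjusted p = 0.00457, edgeR with Benjamini-Hochberg adjustment). HBA2 was lower and missed only the gate on adjusted p (-0.68, SE 0.213, adjusted p = 0.0244, edgeR with Benjamini-Hochberg adjustment). The groups overlapped for the other tested globin genes, HBA1 (-0.12, SE 0.207) and HBB (-0.069, SE 0.394). Monocyte genes summed to 700, 695 and 722 in control and 535, 536 and 554 after C3, mainly LYZ (83.6%), which fell (log2 fold change -0.51, adjusted p = 4.65e-05, edgeR with Benjamini-Hochberg adjustment), 1 of 2 tested genes beside 1.47% called lower among all genes. The means of the other monocyte genes, CSF1R (85.2 ± 10.6 and 102 ± 5.01, not called), CD14, S100A8 and S100A9 (the last 3 not tested), were higher after C3, so the lower sum was that of LYZ alone. Lymphoid genes summed to 68.9 to 82.3 in control and 64.3 to 99.0 after C3, mostly CD79A (81.7%), with MS4A1 at 0 in all libraries. Of 2 tested lymphoid genes the 3 tools called 0, also at an unadjusted p below 0.05, beside the same shares. Fibroblast genes, led by DCN (47.3%), summed to 13.1 to 20.6 in control and 36.4 to 43.1 after C3, and differed among themselves. COL1A1 had 6, 5 and 2 counts in control and 12, 11 and 34 after C3, so it reached the count minimum only through the C3 libraries, and its call (higher, 1 of 2 tested genes beside 5.05% of all tested genes) was made by edgeR alone among the 3 tools. DCN was higher in groups that did not overlap (9.51 ± 2.04 and 17.6 ± 6.04 normalized counts) and was not called, and PDGFRB, with 4 counts in control and 15 after C3, was not tested. COL1A2 was lower, with 6 counts in control and 2 after C3, and was not tested. PLVAP rose from 37.3 ± 16.9 to 94.2 ± 10.8 (log2 fold change 1.36, adjusted p = 0.000194, edgeR with Benjamini-Hochberg adjustment).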

How the data were processed

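The 6 libraries of Meg-01 RNA were deposited by the authors as raw counts per gene, with columns matched to samples by name. The submitters' processing notes name fastp, STAR 2.6.1d, featureCounts 1.5.0-p3 and GRCh38 (hg38). The annotation release and the strand setting of the counting were not given in the sources used here. Reads in overlaps of genes on opposite strands cannot be told apart. Symbols for 58207 of 58735 gene identifiers, exon lengths and coordinates were taken from GENCODE release 44. The members and lists were chosen with earlier results of these data known. Counts were normalized with TMM factors and fitted with edgeR 4.0.16 (glmQLFit, glmQLFTest, R 4.3.3) over all 15078 genes that reached the minimum of 10 counts in 3 or more libraries, with Benjamini-Hochberg adjustment and gates of adjusted p below 0.01 and fold change above 1.3. The steps were tested on simulated data. Genes named were the 10 members, every called wider gene and the 3 with the smallest p in each direction, the 5 closest to MFSD2B in Pearson's r (prior count 2, mean normalized count of at least 50), and of each marker list the most abundant and the called genes; the remaining ones were singled out after their values were seen. Levels per kilobase used merged exons. Depth ran from 16159449 to 22821722 counts, and genes with few counts are limited by counting error. Alternatives were DESeq2 1.42.0, limma-voom (limma 3.58.1), RLE factors, library size alone, other count filters and gates, the longest transcript, the replicate number as a block, and each library left out.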

Additional observations from a re-analysis of the deposited data

How the results depend on the processing

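Over the alternatives the log2 fold change ranged from -1.02 to -0.91 for MFSD2B, -0.49 to -0.38 for CERS2 and 0.94 to 1.07 for SPHK1, which is a description only since this contrast chose the genes. ACER3 was called in all 15 other settings (0.51 to 0.65). Of all genes, 222 were called lower as reported, but 101 with library size alone, 612 at adjusted p below 0.01 with no fold gate and 1323 at adjusted p below 0.05 with no fold gate, where 1658 were higher against 761. Leaving out 1 library gave 129 (without C3 replicate 3) to 340 (without C3 replicate 1) genes lower and 516 to 766 higher. Of the wider sphingolipid genes 3 were called higher as reported, 1 with DESeq2, 1 with a mean count of at least 50, and 5 at adjusted p below 0.05 with no fold gate, and 0 lower as reported, 2 at adjusted p below 0.01 and 4 at adjusted p below 0.05 with no fold gate. Leaving out 1 library gave 1 to 4 higher and 0 to 2 lower, with 1 higher without control replicate 1 or 3. DESeq2 gave no adjusted p for the low-count S1PR1 and S1PR5, and a mean count of at least 50 left them untested. The cause of the other shifts was not tested. The replicate numbers did not pair the libraries (correlations of deviations 0.0209, -0.0468 and 0.0296 for replicates 1, 2 and 3), and with the replicate number as a block 909 genes were higher and 268 lower, with 3 and 0 wider genes. Depth limits genes with few counts, such as S1PR1, S1PR5 and COL1A1.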
